A study of Mus musculus with 7 samples.

Results

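Mesothelin and its mucin partners are described here through 7 genes of the 21121 listed for mouse lung epithelial cells. They are Msln, the membrane mucin genes Muc1, Muc4, Muc16 and Muc20, the secreted mucin gene Muc5b, and Upk3b, a uroplakin gene used as a check for mesothelial cells. The 7 genes were chosen by name, with their levels over 5 stages of development already known, so those levels are a description and carry no test. Cells came from the lungs of C57BL/6 mice on embryonic days 13.5, 15.5 and 18.5 (E13.5, E15.5, E18.5) and on postnatal days 14 and 56 (P14, P56). No treatment, transgene or mutation is given in the labels for any stage, and E18.5 served as the base for the postnatal stages. E18.5 and P56 had 2 libraries each and the other 3 stages had 1, which makes 7, and the labels do not say how many animals stand behind a library. At all stages the cells were sorted as alive, positive for Epcam and negative for CD31, CD45, Ter119 and CD146.

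Mesothelin is a glycoprotein held on the cell surface by a lipid anchor and is best known from the mesothelial cells that line the lung and body cavities. It is cut from a larger precursor by furin, and it binds the mucin Muc16. Membrane mucins such as Muc1 and Muc4 coat the outer face of epithelia with O-linked sugars and carry short tails inside the cell, while Muc5b is secreted and forms the mucus gel of the airways.

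RNA was read as short tags near the 3' ends of transcripts (3' SAGE sequencing), and the values are tag counts that were scaled by the authors with 1 factor per library. The libraries held 2559927 to 3895740 reads, and 1 read was worth 0.236 to 0.385 units. A tag does not measure all genes equally, so each gene is compared with itself across stages. Intervals are exact Poisson intervals at 95%, and for a gene with 0 reads a floor of 3 reads is used in place of an interval. Both cover counting error only. In bulk RNA, fewer cells of a type and less RNA per cell cannot be told apart. The epithelial surface genes of the sort were read in every library, with Epcam at 55.8 to 213 units and Cdh1 at 104 to 286 units. The lung epithelial factor gene Nkx2-1 stood at 502 to 1969 units. These genes shifted between stages. On the log2(value + 1) scale, E18.5 minus the mean of E13.5 and E15.5 was -1.37 for Epcam, 1.01 for Cdh1 and 1.08 for Nkx2-1. For the depleted surface proteins, Ptprc (CD45) and Pecam1 (CD31) each had 0 to 4 reads in a library. Mcam (CD146) had 26 and 14 reads at E13.5 and E15.5 and 0 to 4 reads in the other libraries.

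Msln had a single high stage, E18.5. It had 0 units in the E13.5 library, 20.5 at E15.5, 549 and 733 in the E18.5 pair, 11.8 at P14, and 3.70 and 1.30 in the P56 pair. Both E18.5 libraries stood far above the rest, and no library of another stage came near them. At P56 Msln averaged 2.50 ± 1.70 units, against 641 ± 130 units at E18.5 (SD, n = 2 each), which was 257-fold lower at P56. That fold rests on few P56 reads and was 495-fold without P56 replicate 1 and 173-fold without P56 replicate 2. The single P14 library was 54.2-fold lower than the E18.5 mean. On the log2(value + 1) scale P56 minus E18.5 was -7.60 and P14 minus E18.5 was -5.63. Both postnatal differences rest on the same E18.5 libraries.

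Before E18.5 the level climbed within the embryonic series. The E13.5 library held 0 reads for Msln, and the floor of 3 reads is 0.709 units there. Against that floor E15.5 was at least 28.9-fold higher and E18.5 at least 904-fold higher. E18.5 was 31.3-fold higher than E15.5, and on the log2(value + 1) scale E18.5 minus the mean of E13.5 and E15.5, called the early stages here, was 7.10. At E18.5 Msln took 0.0545% of the reads in replicate 1 (exact binomial 95% interval 0.0517 to 0.0574%) and 0.0692% in replicate 2 (0.0662 to 0.0724%). The stages ranked E18.5, E15.5, P14, P56 and E13.5 by mean. The counting interval at E15.5, 15.5 to 26.5 units, overlapped that at P14, 8.56 to 15.9 units at its edge, and each of these stages is 1 library with no spread between replicates. Both P56 libraries lay below the P14 interval. The interval of the lower P56 library, 0.353 to 3.32 units, took in the floor at E13.5.

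**Figure D1:**
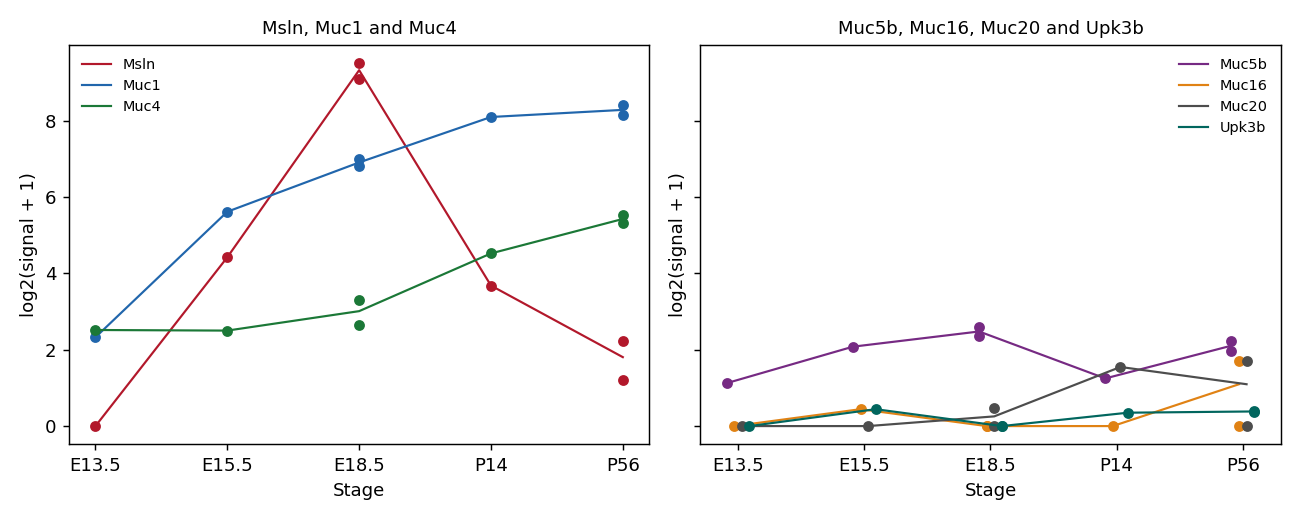
Levels of the 7 genes across the 5 stages as log2(signal + 1), with Msln, Muc1 and Muc4 in one panel and Muc5b, Muc16, Muc20 and Upk3b in the other. Points are libraries and lines join stage means. Msln peaks in the E18.5 libraries, at 549 and 733 units, whereas Muc1 and Muc4 are highest in the P56 libraries and the other 4 genes stay near the bottom.

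Msln lies on chromosome 17 of GRCm38 at chr17:25748613-25754378 on the minus strand, a protein-coding gene in GENCODE vM21. Its neighbour Mslnl (mesothelin-like), which encodes a protein related to mesothelin, lies at chr17:25736042-25748330 on the plus strand. The 2 genes point toward each other, with 282 bases between their 3' ends. Mslnl was not among the 7 chosen genes and was tested, with a gene called at an adjusted p under 0.05 over all 12964 genes that passed a filter on low counts. Its list was also chosen with earlier results of these data known, so its p-values are not free of that choice. Mslnl had 0 units in the E13.5 library, 33.7 at E15.5, 88.9 and 112 in the E18.5 pair, 3.03 at P14, and 0.285 and 1.62 in the P56 pair. As with Msln, both E18.5 libraries were the highest of the 7, and both P56 libraries held fewer than P14. Mslnl fell to 0.952 ± 0.944 units at P56, against 101 ± 16.5 units at E18.5 (SD, n = 2 each), 106-fold lower by stage means. On the log2(value + 1) scale the difference was -5.78 (SE 0.44, limma adjusted p = 0.000341). The 2 P56 libraries held 1 and 5 reads of Mslnl, and the fold was 62.1 without P56 replicate 1 and 354 without P56 replicate 2, where the remaining single read gives a counting interval of 63.5 to 13964. It fell at P14 too, 33.2-fold lower than at E18.5 (log2 -4.65, SE 0.54, limma adjusted p = 0.00839). E18.5 was higher than the early stages (log2 4.10, SE 0.44, limma adjusted p = 0.000777) and at least 142-fold above E13.5. Without the filter on low counts the adjusted p of Mslnl was 0.0653 at P56 and 0.112 at P14, each against E18.5. With ordinary in place of robust variances the P14 value was 0.0877. All limma p-values come from 2 residual degrees of freedom, and they measure the spread between these samples, which may be technical. The other relative measured, Otoa, which encodes otoancorin of the inner ear, had reads in a single library, E18.5 replicate 2, and was not tested.

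The mesothelial check genes did not show the E18.5 peak of Msln, but Upk3b was too low to show one. Upk3b had 0 reads in both E18.5 libraries and at E13.5, and 1 read in each of the other 4 libraries, and the floor of 3 reads is 1.16 and 1.13 units in the E18.5 libraries. With at most 1 read in any library, Upk3b cannot tell the stages apart. Upk1b, another uroplakin of mesothelium, had 3 reads in the E13.5 library, 8 at E15.5, 13 and 6 in the E18.5 pair, 51 at P14, and 68 and 11 in the P56 pair. Wt1, the transcription factor of the mesothelial lineage, had 4 reads at E15.5 and 0 in each of the other 6 libraries. Lrrn4 had 1 read at E13.5, 6 at E15.5, 13 in P56 replicate 1 and 0 elsewhere. The list held 11 mesothelial markers, of which 9 were listed in the files. At E18.5 8 and 7 of these 9 had no read, and their summed level was 5.01 and 2.64 units, the lowest of all libraries. The sum was 7.56 units in the E13.5 library, 13.6 at E15.5, 18.7 at P14, and 29.9 and 8.10 in the P56 pair. Of the 3 that could be tested, Aldh1a2, an enzyme of retinoic acid synthesis, was called at E18.5 and at P56, beside 29.1% of all genes called at E18.5 relative to the early stages and 14.2% at P56 relative to E18.5. It fell at E18.5 relative to the early stages (log2 -1.90, SE 0.49, limma adjusted p = 0.0258) and rose at P56 relative to E18.5 (log2 1.88, SE 0.49, limma adjusted p = 0.0451). Aldh1a2 had 0 reads in both E18.5 libraries. It passed the filter on low counts only through libraries of other stages, so its calls are not independent of the filter. Its P56 call did not pass in edgeR (adjusted p = 0.0612), nor without the filter (0.0648), and its call at E18.5 did not pass in edgeR with any 1 of the E18.5 and P56 libraries left out (adjusted p = 0.0592 to 0.0850). At P14 0 of the 3 were called by limma or edgeR, and 0 had an unadjusted p under 0.05.

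**Figure D2:**
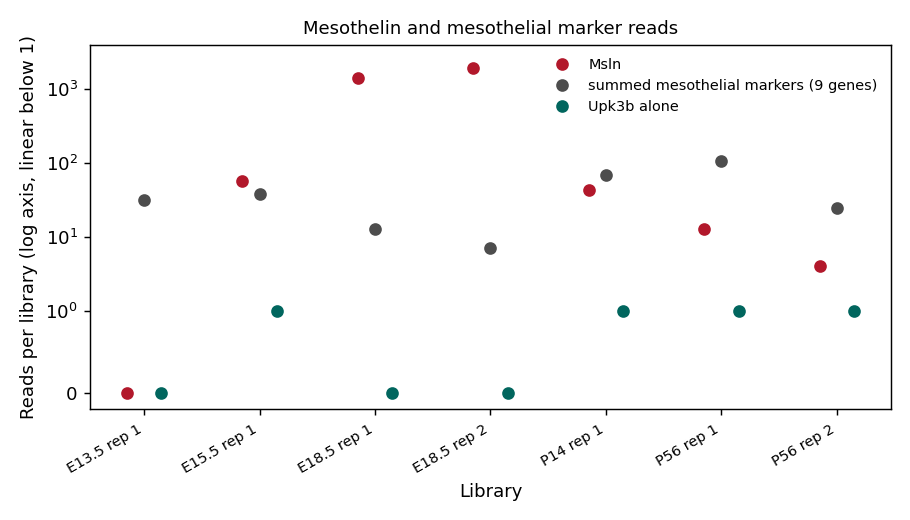
Reads of Msln, of the 9 mesothelial markers summed and of Upk3b alone in each of the 7 libraries, on an axis that is logarithmic above 1 read. Msln has 1426 and 1945 reads in the E18.5 libraries, where the summed markers have 13 and 7 and Upk3b has 0.

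Muc1, whose protein is a membrane mucin of glandular and alveolar epithelium, took another course and was highest after birth. It had 4.02 units in the E13.5 library, 48.1 at E15.5, 126 and 112 in the E18.5 pair, 273 at P14, and 282 and 340 in the P56 pair. Each later stage stood above the earlier one, with no overlap between the E18.5 and P56 libraries. Muc1 averaged 311 ± 41.1 units at P56 and 119 ± 10.2 units at E18.5 (SD, n = 2 each), 2.61-fold higher at P56 (log2 difference 1.37). The P14 library was 2.29-fold above the E18.5 mean. P56 was 1.14-fold above P14, and the counting intervals of P56 replicate 1, 265 to 300 units, and of P14, 256 to 291 units, overlapped. By fold, most of the range lay before birth, with E15.5 12.0-fold above E13.5 and E18.5 29.6-fold above E13.5. In units, the rise from E18.5 to P56 was larger than that from E13.5 to E18.5.

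Muc4 encodes a large membrane mucin that forms a complex with the receptor Erbb2. It had 4.73 units in the E13.5 library, 4.66 at E15.5, 8.86 and 5.27 in the E18.5 pair, 22.0 at P14, and 38.7 and 45.3 in the P56 pair. The 3 embryonic stages lay close together and their counting intervals overlapped, whereas the postnatal libraries were all higher. Muc4 averaged 42.0 ± 4.70 units at P56 and 7.06 ± 2.53 units at E18.5 (SD, n = 2 each), 5.95-fold higher at P56 (log2 difference 2.45). P14 was 3.12-fold above the E18.5 mean, and P56 was 1.91-fold above P14. E18.5 minus the early stages was 0.47 on the log2(value + 1) scale, and the E15.5 value of 4.66 lay near the lower E18.5 library. The 12.0-fold step of Muc1 between E13.5 and E15.5 had no counterpart in Muc4, which held 4.73 and 4.66 units there.

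Of the 7 genes, Msln, Muc1, Muc4 and Muc5b passed the filter on low counts. Between P56 and E18.5 the libraries of all 4 did not overlap, 2 being higher at P56 and 2 lower. Over the 12964 genes that passed, 31.6% were higher without overlap and 25.0% were lower without overlap, so a gene without overlap is common and nothing is read from this count.

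Muc1 and Muc4 are shown with their promoters because, of the mucin genes that passed the filter on low counts, they were the ones higher after birth. Of the 7 genes, Muc1, Muc4, Muc16, Muc20 and Upk3b matched the RefSeq promoter table (GRCm38.p6). Each window runs from 250 bases before to 50 bases after the gene start. Muc1 lies at chr3:89229057-89233381 (plus strand), with its window at chr3:89228806-89229105, and Muc4 at chr16:32735886-32782391 (plus strand), with its window at chr16:32735636-32735935. Capitals mark matches to the motifs searched on both strands.
Muc1: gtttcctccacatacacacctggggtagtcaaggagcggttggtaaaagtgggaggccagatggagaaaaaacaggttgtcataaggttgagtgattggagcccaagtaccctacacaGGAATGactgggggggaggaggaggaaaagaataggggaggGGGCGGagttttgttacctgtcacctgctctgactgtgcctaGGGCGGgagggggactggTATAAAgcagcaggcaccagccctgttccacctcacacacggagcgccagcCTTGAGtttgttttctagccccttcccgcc
Muc4: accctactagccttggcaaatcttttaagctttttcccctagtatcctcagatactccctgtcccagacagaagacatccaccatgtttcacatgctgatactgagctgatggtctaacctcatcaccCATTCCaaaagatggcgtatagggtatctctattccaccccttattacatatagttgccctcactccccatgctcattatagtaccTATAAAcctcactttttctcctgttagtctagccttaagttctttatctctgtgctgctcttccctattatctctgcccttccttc
No motif match overlapped another in these windows. The GC box GGGCGG occurred in the Muc1 window at -91 and -49 and in 35.9% of all 32544 promoters of that length, and it was absent from the Muc4 window. The TATA box TATAAA stood at -31 in Muc1 and at -36 in Muc4, and 13.6% of promoters held it. GGAATG, the motif of TEAD factors, was at -132 in Muc1 and on the opposite strand at -122 in Muc4, with 14.6% of promoters holding it. CTCAAG, the core recognised by Nkx2-1, was on the opposite strand at 21 in Muc1 and is present in 15.7% of promoters. TTCNNNGAA, the STAT motif, was in neither window and in 8.33% of promoters. GC content was 55.7% for Muc1 and 43.7% for Muc4, beside a median of 53.0%. These matches are a description of letters and not of binding.

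Muc5b, Muc16 and Muc20 were low in every library. Muc5b had 5 reads in the E13.5 library, 9 at E15.5, 13 and 11 in the E18.5 pair, 5 at P14, and 13 and 9 in the P56 pair. Its mean was 3.31 ± 0.555 units at P56 and 4.57 ± 0.608 units at E18.5 (SD, n = 2 each), 0.723 times the E18.5 level, and the counting intervals of all 4 libraries overlapped. Muc5b lies at chr7:141839070-141873084 (plus strand), 19838 bases from Muc5ac, the other gel-forming mucin gene of the airway. Muc5ac had 2 reads at E15.5 and 0 in the other libraries.

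Muc16, whose protein binds mesothelin, lies at chr9:18495455-18674530 (minus strand). It had 1 read at E15.5, 8 reads in P56 replicate 1, and 0 in each of the other 5 libraries, both E18.5 libraries included. Where Msln was highest, Muc16 was therefore not detectable at this depth, with a floor of 3 reads at 1.16 and 1.13 units. Muc20, a membrane mucin best known from the kidney, had 1 read in E18.5 replicate 1, 7 reads at P14, 8 reads in P56 replicate 1 and 0 in each of the other 4 libraries. No fold is given for Muc16, Muc20 or Upk3b at these read numbers. P56 replicate 1 held the Muc16 and Muc20 reads and P56 replicate 2 held none, and in the same libraries the 9 mesothelial markers had 105 and 25 reads. The part of the mesothelial markers in the Muc16 and Muc20 reads was not tested. Muc20 at chr16:32777419-32797435 (minus strand) overlaps Muc4 by 4973 bases, of which 627 are exonic in both, at their 3' ends. The sources used here do not give the strand used in counting, so tags from that overlap cannot be told apart between Muc4 and Muc20. Upk3b lies at chr5:136038496-136046487 (plus strand). All 7 genes are protein coding in GENCODE vM21.

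The postnatal drop of Msln was set beside marker genes of the lung cell types. For 15 alveolar type 1 markers, the flat gas-exchange cells, the ratio of P56 to E18.5 ran from 0.0318 for Cav1 to 1.35 for Aqp5, with a median of 0.163, and 14 of the 15 lay under 1. The same ratio was 0.00390 for Msln, below all 15. At P14 the ratios to E18.5 ran from 0.401 for Lmo7 to 13.0 for Igfbp2, with a median of 1.03, beside 0.0185 for Msln. Of the 15 markers 7 lay under 1 at P14, and none was below Msln. At E18.5 relative to the early stages 14 of the 15 rose and 1 fell in the limma test, beside 15.8% and 13.4% of all genes. In the same test 13 of 15 type 1 markers fell and 0 rose at P56 relative to E18.5, beside 6.15% lower and 8.07% higher of all genes tested, and 6 fell without the filter. At P14 2 fell and 1 rose, beside 1.24% lower, 1.87% higher and 3.11% in either direction of all genes. The P14 calls of Lmo7, Igfbp2 and Gprc5a did not pass with ordinary variances (adjusted p = 0.0848, 0.102 and 0.114).

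Muc1 and Muc4 were set beside the 13 markers of alveolar type 2 cells, which make surfactant. The ratio of P56 to E18.5 for these markers reached 44.8 for Lyz2 and was lowest for Abca3, with a median of 4.13, beside 2.61 for Muc1 and 5.95 for Muc4. At P14 it ran from 1.45 for Lpcat1 to 23.8 for Lyz2, with a median of 2.86, beside 2.29 for Muc1 and 3.12 for Muc4. In the limma test 12 of 13 type 2 markers rose at P56 and 10 of 13 rose at P14, and 0 fell in either comparison, beside 8.07% of all genes higher at P56 and 1.87% at P14. With ordinary variances 0 of the 13 were called at P14, and with edgeR 11 were. Among club cell markers, the secretory cells of the airway, 5 of 6 tested rose at P56 relative to E18.5 and 0 fell. The ratio of P56 to E18.5 for the 7 club markers listed ran from 0.554 for Selenbp1 to 20.8 for Scgb1a1 with a median of 5.44, and the median ratio of P14 to E18.5 was 2.43, so Muc1 and Muc4 lay within the range of these markers as well. Scgb1a1, the main club cell secretion, averaged 308 ± 50.2 units at P56 and 14.9 ± 0.227 units at E18.5 (SD, n = 2 each).

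**Figure D3:**
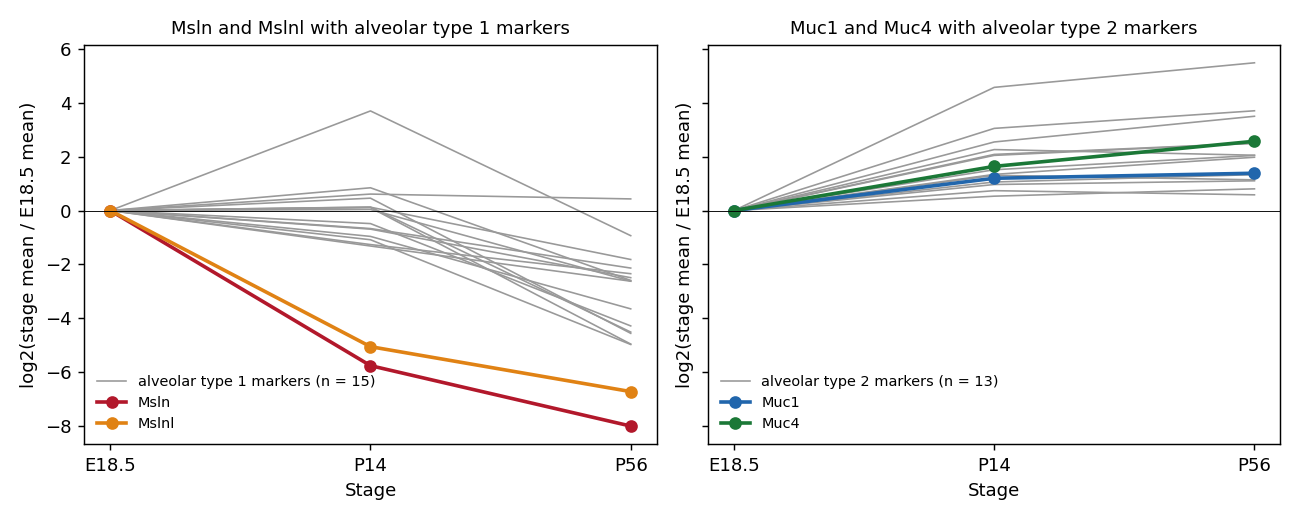
Stage means at E18.5, P14 and P56 as the log2 ratio to the E18.5 mean, for Msln and Mslnl over the 15 alveolar type 1 markers (grey lines) and for Muc1 and Muc4 over the 13 alveolar type 2 markers (grey lines). Msln, at ratios of 0.0185 and 0.00390, runs below every type 1 marker, and Muc1 and Muc4 run among the type 2 markers.

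The genes whose course was most like that of each member were looked for among 2033 genes with a highest stage mean of at least 100 units. Likeness was the Pearson r of log2(value + 1) over the 7 libraries, which share stages and replicates, and it is given as a description. For Msln the nearest were Llgl2, a cell polarity gene (r = 0.996), and Wdr45, an autophagy gene (r = 0.990). Llgl2 had 27.6 units in the E13.5 library, 85.8 at E15.5, 209.8 and 222.7 in the E18.5 pair, 70.4 at P14, and 42.1 and 38.2 in the P56 pair. It too was highest in both E18.5 libraries, and its P56 mean was 5.38-fold lower than at E18.5, beside 257-fold for Msln, or 173-fold to 495-fold with 1 P56 library left out. Mslnl ranked 23 for Msln with r = 0.940.

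For Muc1 the nearest were Adgrf5 (r = 0.999), an adhesion receptor gene of the alveolar epithelium, and Sftpc (r = 0.998), which encodes surfactant protein C. Gpr116, an older symbol of Adgrf5 and thus the same gene on another row, came next (r = 0.997). Sftpc had 29.5 units in the E13.5 library, 1260 at E15.5, 3953 and 3365 in the E18.5 pair, 15516 at P14, and 19987 and 21448 in the P56 pair. Like Muc1 it was higher at each later stage, with P56 5.66-fold above E18.5. For Muc4 the nearest were Cox6a2 (r = 0.994), a subunit of cytochrome c oxidase, Lmna (r = 0.992), which encodes the nuclear lamins A and C, and H2afj (r = 0.989), a histone variant gene. Cox6a2 had 0 units at E13.5 and E15.5, 8.86 and 2.26 in the E18.5 pair, 206 at P14, and 906 and 1254 in the P56 pair.

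**Figure D4:**
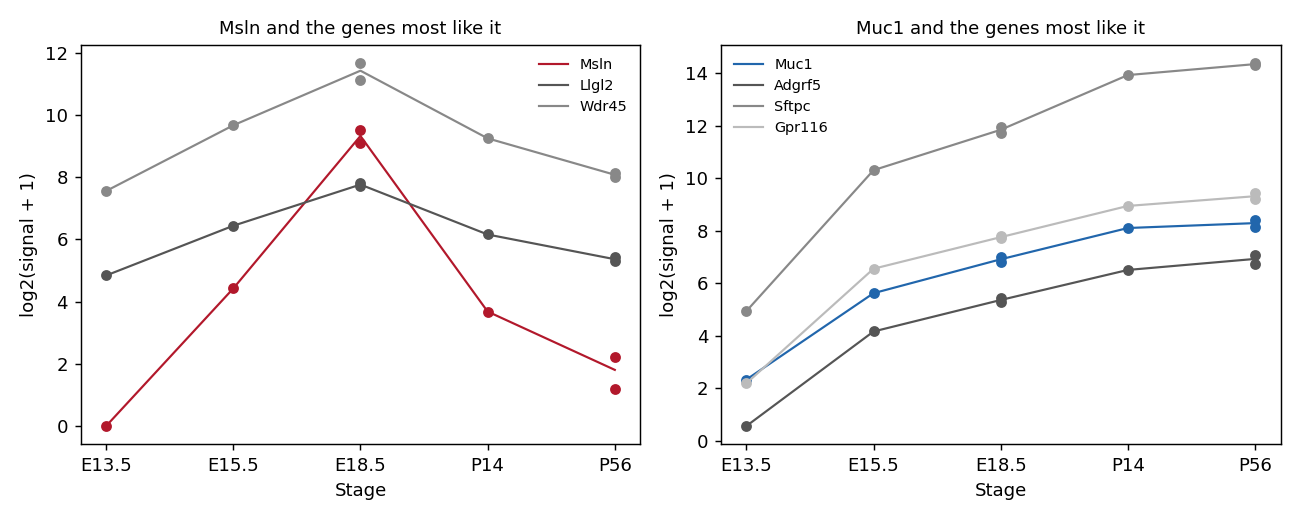
Levels of Msln and of Muc1 as log2(signal + 1) across the 5 stages, each with rows of highest Pearson r to it in grey. Points are libraries and lines join stage means. Llgl2 and Wdr45 are highest at E18.5 like Msln, and Adgrf5, Sftpc and Gpr116 are highest at P56 like Muc1.

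Other mucin and mucin-like genes were mostly absent or too low to test. Of 14 such genes 7 were listed and 3, Muc2, Podxl and Cd164, could be tested, and the sialomucin gene Cd164 was called in no comparison. At P56 relative to E18.5 0 rose and 2 fell, at P14 0 rose and 1 fell, and at E18.5 relative to the early stages 1 rose and 0 fell. Over all genes tested, 15.8% rose and 13.4% fell at E18.5, 8.07% and 6.15% at P56, and 1.87% and 1.24% at P14. With 3 genes tested, nothing is read from these counts. Muc2, the gel-forming mucin of the intestine, had 0 reads at E13.5 and E15.5, 16 and 18 in the E18.5 pair, 0 at P14, and 2 and 0 in the P56 pair. Its reads were confined to the E18.5 libraries and 1 P56 library. Muc2 passed the filter on low counts only through the E18.5 libraries, so its calls are not independent of the filter. It rose at E18.5 relative to the early stages (log2 2.90, SE 0.53, limma adjusted p = 0.00720) and fell at P56 (log2 -2.58, SE 0.53, limma adjusted p = 0.0201). That fall was not past the threshold without the filter (adjusted p = 0.0956) or, in edgeR, without E18.5 replicate 2 (0.0734), P56 replicate 1 (0.104) or P56 replicate 2 (0.251). Podxl, a sialomucin, had 134 units in the E13.5 library, 94.7 at E15.5, 95.9 and 91.9 in the E18.5 pair, 16.8 at P14, and 2.85 and 2.27 in the P56 pair. All embryonic libraries were above all postnatal ones, and Podxl fell 36.7-fold by stage means at P56 relative to E18.5. On the log2(value + 1) scale the difference was -4.74 (SE 0.25, limma adjusted p = 9.07e-05). Podxl was the gene that fell at P14, and that call did not pass with ordinary variances (limma adjusted p = 0.0810).

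Some enzymes that build mucin-type O-glycans rose and others fell. Of 31 such enzymes 26 were listed and 19 tested. At E18.5 relative to the early stages 5 rose and 2 fell, beside 15.8% and 13.4% of all genes. At P56 relative to E18.5 3 rose and 2 fell, beside 8.07% and 6.15% of all genes. The median log2 difference at P56 was 0.73, beside 0.06 for all genes tested. At P14 1 rose and 0 fell, beside 1.87% and 1.24% of all genes. St3gal1, which adds sialic acid to core galactose, averaged 120 ± 21.0 units at P56 and 31.6 ± 1.67 units at E18.5 (SD, n = 2 each), 3.79-fold higher (log2 1.88, SE 0.26, limma adjusted p = 0.00434). St6galnac4, another sialyltransferase, averaged 96.5 ± 0.396 units at P56 and 19.4 ± 2.99 units at E18.5, 4.96-fold higher (log2 2.26, SE 0.26, limma adjusted p = 0.00194). Its P14 call, adjusted p = 0.0485, was not past the threshold with TMM scaling (0.0542) or DESeq2 size factors (0.0574). Galnt18, of the enzyme family that starts O-glycans, averaged 6.85 ± 0.841 units at P56 and 42.8 ± 2.85 units at E18.5, 6.25-fold lower (log2 -2.48, SE 0.29, limma adjusted p = 0.00223). Without the filter the P56 call of St3gal1 did not pass (adjusted p = 0.0698). St6galnac2 rose at E18.5 relative to the early stages (log2 2.52, SE 0.20, limma adjusted p = 0.000235).

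Binding partners, receptors and proteases of mesothelin and the membrane mucins included 12 genes, all tested. At E18.5 relative to the early stages 7 rose and 0 fell, at P56 relative to E18.5 1 rose and 3 fell, and at P14 0 rose and 1 fell. Over all genes tested, 15.8% rose and 13.4% fell at E18.5, 8.07% and 6.15% at P56, and 1.87% and 1.24% at P14. Without the filter 1 rose at E18.5 and 1 fell at P56. Mmp14, a membrane protease that sheds Muc1 in human cells, had 514 units in the E13.5 library, 1303 at E15.5, 1728 and 2013 in the E18.5 pair, 678 at P14, and 198 and 162 in the P56 pair. Like Msln it was highest in both E18.5 libraries, and it fell 10.4-fold at P56 (log2 -3.37, SE 0.19, limma adjusted p = 0.000115). Egfr, a receptor that Muc1 binds, averaged 5.76 ± 3.31 units at P56 and 47.3 ± 9.34 units at E18.5 (SD, n = 2 each), 8.22-fold lower (log2 -2.92, SE 0.40, limma adjusted p = 0.00443). That fold was 5.84 without P56 replicate 1 and 13.9 without P56 replicate 2. Met, the receptor of hepatocyte growth factor, averaged 311 ± 87.3 units at P56 and 92.9 ± 7.74 units at E18.5, 3.35-fold higher (log2 1.71, SE 0.25, limma adjusted p = 0.00519). Without the filter the P56 calls of Egfr and Met did not pass (adjusted p = 0.155 and 0.139). Icam1, an adhesion receptor bound by Muc1, rose at E18.5 relative to the early stages (log2 2.39, SE 0.15, limma adjusted p = 9.17e-05).

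Factors and products of mucous cells were mostly too low to test, 6 of the 14 listed genes passing the filter. At E18.5 relative to the early stages 3 rose and 0 fell, at P56 relative to E18.5 1 rose and 0 fell, and at P14 0 were called by limma or edgeR and 3 had an unadjusted p under 0.05. Of all genes tested, 15.8% rose at E18.5 and 8.07% at P56. Scgb3a1, a secretoglobin of airway secretory cells, had 0 reads in all 4 embryonic libraries, 11 at P14, and 288 and 84 at P56. It passed the filter only through postnatal libraries, where it was high, so its call is not independent of the filter. The log2(value + 1) difference of P56 and E18.5 was 5.60 (SE 0.60, limma adjusted p = 0.00146). By stage means P56 was at least 95.5-fold above E18.5, with a floor of 3 reads over both E18.5 libraries. That bound was 47.6-fold without P56 replicate 1 and 143-fold without P56 replicate 2. Stxbp2, Vamp8 and Rab3d, which act in granule release, rose at E18.5 relative to the early stages with log2 differences of 1.40, 1.46 and 1.54 (limma adjusted p = 0.0106, 0.0139 and 0.0177). Without the filter the adjusted p was 0.105 for Scgb3a1, 0.166 for Vamp8 and 0.0515 for Rab3d.

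Markers of cells outside the sort gate were compared between stages as well. The summed level of 10 mesenchymal markers was 2607 units in the E13.5 library, 1393 at E15.5, 241 and 255 in the E18.5 pair, 224 at P14, and 141 and 96.5 in the P56 pair, and Vim made up most of it at E13.5 with 2564 units. Without Vim the other 9 summed to 43.0, 200.2, 130.5 and 119.8, 86.4, and 95.9 and 56.0 units in the same order, and none of these sums lay below that of E13.5. At E18.5 relative to the early stages 1 of 8 tested mesenchymal markers, Tcf21, rose and 2 fell, with a median log2 difference of 0.48. At P56 relative to E18.5 6 of the 8 fell and 1 rose, while 3 fell with ordinary variances and 0 without the filter. Their part in the levels of Msln and the mucins was not tested. The 7 endothelial markers summed to 3.24 to 31.2 units and the 7 immune markers listed to 0.385 to 31.4 units across the libraries. Of 3 endothelial and 3 immune markers tested, 1 of each kind fell at E18.5 relative to the early stages and 0 rose. The immune one, Tyrobp, did not pass in edgeR (adjusted p = 0.0525). At P14 relative to E18.5 1 immune marker, Csf1r, rose (log2 4.31, SE 0.84, limma adjusted p = 0.0430), but not without the filter (adjusted p = 0.243) or with ordinary variances (0.128). The 4 basal cell markers summed to 0 to 4.84 units, and none of them could be tested. At P14 0 of 8 mesenchymal markers were called by limma, 1 was called by edgeR and 3 had an unadjusted p under 0.05. Of 6 ciliated cell markers tested, 4 rose and 0 fell at E18.5 relative to the early stages, 1 rose and 0 fell at P56, and 1 rose and 1 fell at P14. Over all genes tested, 15.8% rose and 13.4% fell at E18.5, 8.07% and 6.15% at P56, and 1.87% and 1.24% at P14. The endothelial and immune counts rest on 3 genes each, and nothing is read from them.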

How the data were processed

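The authors deposited a scaled signal for every gene of a library, in which tag counts were divided by 1 library factor. The unit was read from the values, since 100% of them were whole reads within 0.01 reads once divided by the smallest step. The submitters' processing notes name mm10, R 3.4.0 and Bowtie2 2.2.5. The tag enzyme, counting program, strand, annotation and scaling method are not given in the sources used here.

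Of 21121 genes, 12964 passed edgeR's filterByExpr by stage on the recovered reads. Contrasts were tested with limma-trend (limma 3.58.1, R 4.3.3) on log2(value + 1), with robust variances, all 7 libraries and 1 coefficient per stage. The spread of stages with 1 library was taken from E18.5 and P56. The pseudocount understates changes of low genes. Folds are ratios of stage means without a pseudocount, so they can exceed the log2 differences printed beside them. Calls had a Benjamini-Hochberg adjusted p under 0.05 over all tested genes. Replicates differed beyond counting error (chi-square per degree of freedom 9.36 at E18.5 and 7.21 at P56). edgeR 4.0.16 and DESeq2 1.42.0 size factors served as alternatives. The fit was also run on simulated data with 200 genes changed at P56 only, a simpler setting than these data. The calls draw no support from it.

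Members and gene lists were chosen with earlier results of these data known. Besides members, up to 3 called genes per list and contrast with the smallest p were eligible to be named, with sort genes, mesothelial markers and the 3 genes most like each member whose highest stage mean reached 10; not all eligible genes are given, and 1 result is not reported here. Muc5ac, Otoa and Mslnl as a likeness rank were added after their values were seen.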

Additional observations from a re-analysis of the deposited data

How the results depend on the processing

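The numbers of genes called were 3779 for E18.5 against the early stages, 1843 for P56 against E18.5 and 403 for P14 against E18.5. With the replicate number as a block they were 1893, 894 and 16. The replicate differences of E18.5 and P56 had a correlation of -0.04 over 6807 genes. This single correlation cannot show whether libraries with the same replicate number were handled together, so nothing about pairing is read from it. Without the filter 679 genes were called at P56 and 1051 at P14. Without robust variances 1125 were called at P56 and 6 at P14, and edgeR called 686 at P14. The cause of these changes was not tested. Leaving out 1 library leaves limma 1 residual degree of freedom and 0 calls, with 958 to 1986 genes higher and 882 to 1322 lower at P56 relative to E18.5 at an unadjusted p under 0.05. edgeR with 1 library left out, an alternative chosen after seeing the data, called 3564 to 4561 genes for E18.5 against the early stages, 1171 to 2797 for P56 and 564 to 1614 for P14. P56 calls were 1216 and 1171 in edgeR without P56 replicates 1 and 2, and P14 calls were 1162 when E18.5 replicate 2 was left out and 662 when P56 replicate 2 was.

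For Msln, E18.5 minus the early stages was 5.82 with a pseudocount of 5, 9.31 against E13.5 alone and 4.89 against E15.5 alone, and P56 minus E18.5 was -6.43 with a pseudocount of 5. For Muc1, E18.5 minus the early stages was 2.50 with a pseudocount of 5, 4.58 against E13.5 alone and 1.29 against E15.5 alone. Folds of P56 against E18.5 with 1 library left out, also chosen after seeing the data, moved by over 1.5 times for Msln, Mslnl, Egfr and Scgb3a1. No value of Msln, Muc1, Muc4 or Muc5b changed sign under the alternatives run. Depth limits Muc16, Muc20 and Upk3b, which had at most 8 reads in any library, and E13.5, E15.5 and P14 have 1 library each.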

Other observations

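The other uroplakin genes were also low. Upk1a had 0 reads in the E13.5 library, 1 at E15.5, 0 in both E18.5 libraries, 4 at P14 and 1 in each P56 library. Upk3a had 1 read in the E13.5 library, 6 at E15.5, 1 and 0 in the E18.5 pair, and 0 at P14 and in both P56 libraries. Upk3bl had 2 and 1 reads at E18.5 and 0 in every other library. Upk1b, with 68 reads in P56 replicate 1 and 11 in P56 replicate 2, was the uroplakin gene with the most reads, and Scgb3a1 had 288 and 84 reads in the same libraries. These genes were chosen after their values were seen, and no test was made on them.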
